A study of Mus musculus with 4 samples.

Results

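The circadian clock genes followed here are Arntl (also named Bmal1), Clock, Npas2, Per1, Per2, Cry1, Nr1d1, Nr1d2, Dbp and Ciart. They were picked by symbol and matched to Entrez identifiers, and all 10 were among the 27179 genes counted in the study. By the labels, RNA came from livers of wild-type C57BL/6 mice, male and matched for age, kept under a light/dark cycle. One group of 2 libraries was labelled fasted, from mice without food overnight but with water, and the other group of 2 libraries was labelled non-fasted, from mice with food and water at all times. No agent or engineered allele was used, and no source used here says how many mice stand behind a library, gives an age, or gives the time of day at which livers were taken. A difference in time of day between the groups can therefore not be told apart from fasting. The sample titles give the groups, while the treatment field of the labels reads fasted for all 4 libraries.

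The mammalian clock is a feedback loop of transcription that runs in nearly every cell. The activators ARNTL and CLOCK, or NPAS2 in place of CLOCK, bind E-box elements as a pair and switch on the Per and Cry genes, whose proteins return to the nucleus and inhibit the pair. The same pair drives Nr1d1 and Nr1d2, which encode the heme-binding repressors REV-ERBα and REV-ERBβ of Arntl, and Dbp, whose product carries the rhythm to target genes. In liver the loop is set largely by feeding time, and it times bile acid, glycogen and heme synthesis.

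Both libraries labelled non-fasted held RNA of genes that mark the placenta. The 16 trophoblast markers, genes of the placenta such as Tpbpa and Prl3b1, summed to 5.50% and 5.54% of the counts in the non-fasted libraries (Wilson 95% intervals 5.49 to 5.505% and 5.53 to 5.54%, counting error only), against 4 counts in each fasted library, where 14 and 13 of the 16 were at 0. Xist, which silences one X chromosome in female cells, had 25772 and 26316 counts in these libraries against 2 and 1 counts in the fasted ones, although all mice were labelled male. The 14 hepatocyte markers, such as Alb, were detected in every library and took 12.2% of the counts in each fasted library and 5.06% and 5.03% in the non-fasted ones. Depth was 13541405 and 13528015 counts for the fasted libraries, against 36975921 and 36943535 for the non-fasted ones. By median of ratios, Kupffer cell markers were higher in the fasted libraries (6 of 6, median log2 fold change 2.25) and cholangiocyte markers lower (5 of 5, median -4.52). The hepatocyte markers were higher as well at this scaling (14 of 14, median 1.77). Scaled to the hepatocyte markers, the Kupffer cell markers had a median of 0.48, with 5 of 6 higher. The other lists were mixed, with 2 higher and 4 lower among the endothelial markers (median -0.57), 2 higher and 4 lower among those of stellate and mesenchymal cells (median -3.25), and 1 higher and 3 lower among those of red cells (median -2.10). In such bulk RNA, fewer cells of a type and less RNA per cell cannot be told apart. The part of placental RNA in these marker differences and in the differences given next was not tested.

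The clock genes did not move as a block. After scaling by median of ratios, which sets the typical gene equal between libraries, 5 of the 10 were higher in the fasted libraries (Nr1d2, Clock, Nr1d1, Npas2 and Cry1), 2 were lower (Per1 and Ciart) and 3 did not pass the test (Per2, Arntl and Dbp), by edgeR's quasi-likelihood test at a Benjamini-Hochberg adjusted p of 0.05. All 5 of the higher genes turned lower once counts were scaled to the hepatocyte markers, and Cry1 turned lower already by total counts, whereas Per1 and Ciart were lower under all these scalings. Of all 15470 genes tested, 82.5% passed, with 37.3% higher and 45.2% lower, beside 7 of the 10 clock genes. Normalized counts did not overlap between the groups for 9 of the 10, all but Arntl, and for 91.9% of all genes. Median log2 fold change was 0.14 for the 10 clock genes and -0.13 for all genes tested. Libraries of a group differed little more than counting error allows (squared deviation per gene 1.12 in the fasted against 1.13 in the non-fasted pair, where 1 is counting error alone), so p-values cover no more than this spread, which could be technical. With a fixed biological coefficient of variation of 0.2 or 0.4, as separate animals could show, 3 and 0 clock genes were higher and 2 and 1 were lower, against 24.0% and 10.7% higher and 33.9% and 23.9% lower among all genes.

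**Figure D1:**
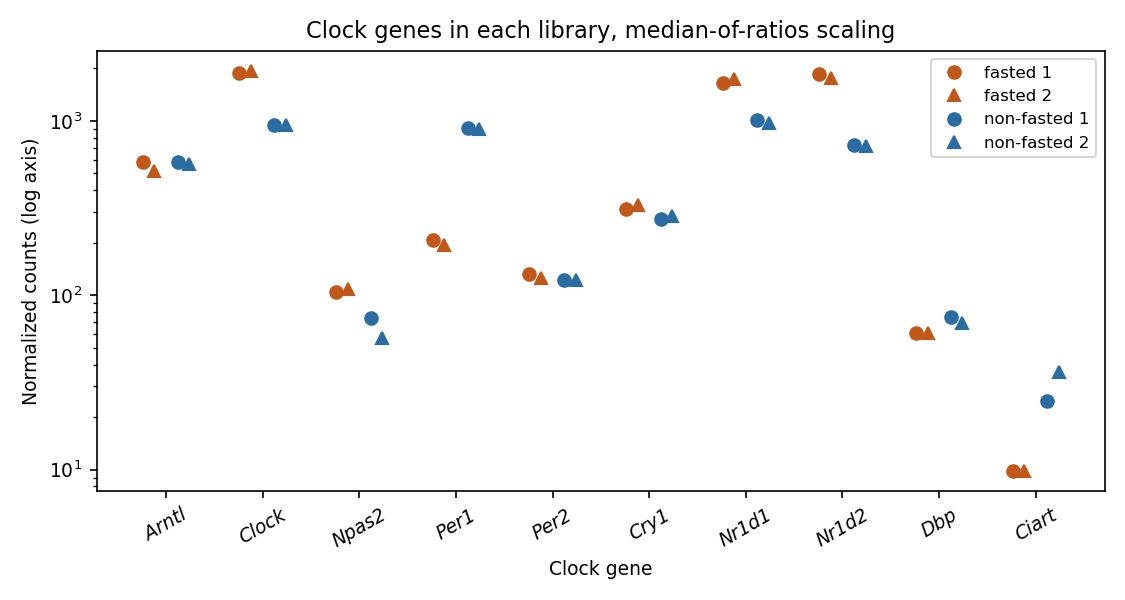
Normalized counts (log axis, median-of-ratios scaling) of the 10 clock genes in each library, with fasted libraries in orange and non-fasted libraries in blue. Points are single libraries. Per1 lies near 200 in the fasted libraries and near 900 in the non-fasted, while Clock, Nr1d1 and Nr1d2 lie higher in the fasted libraries at this scaling and lower once scaled to the hepatocyte markers.

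Among the activators, Clock passed the test by median of ratios and its partner Arntl did not. Arntl (Entrez gene 11865) had 294 and 261 counts in the fasted against 1141 and 1111 counts in the non-fasted libraries, which gave 578 and 515 against 580 and 565 normalized counts. The groups overlapped, and the log2 fold change was -0.07 (standard error, SE, 0.064, adjusted p = 0.351 by edgeR). Arntl did pass as lower by total counts (-0.57, adjusted p = 2.84e-05 by edgeR) and relative to hepatocyte markers (-1.84, adjusted p = 1.48e-13 by edgeR). Clock (Entrez gene 12753), whose product is also a histone acetyltransferase, had 959 and 984 counts in the fasted against 1860 and 1861 counts in the non-fasted libraries. Its normalized counts were 1912 ± 39.9 in fasted against 945 ± 0.839 in non-fasted libraries (SD, n = 2 each), with both fasted libraries above both others. This was 2.02-fold, a log2 fold change of 1.02 (SE 0.035, adjusted p = 8.51e-09 by edgeR). Clock was at 0.51 by total counts and at -0.75 by hepatocyte markers. Npas2 (Entrez gene 18143), the paralog that can replace CLOCK, had only 53 and 55 counts in the fasted against 145 and 112 counts in the non-fasted libraries. Normalized, these were 106 ± 3.07 and 65.3 ± 11.8 (SD, n = 2 each), and the log2 fold change was 0.70 (SE 0.19, adjusted p = 0.00853 by edgeR). The call of Npas2 did not hold without fasted library 1 or 2 (0.77 and 0.70), nor by total counts (0.20, adjusted p = 0.346 by edgeR). Over all 18 alternatives adjusted p ran from 3.81e-05 to 1, both by edgeR. The lowest came by hepatocyte markers, where Npas2 was lower (-1.07), and the highest with a minimum fold of 2.

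The repressors of the period and cryptochrome families went apart. Per1 (Entrez gene 18626), a period gene that responds quickly to light, glucocorticoids and cAMP, had 106 and 99 counts in the fasted against 1795 and 1770 counts in the non-fasted libraries. Its normalized counts were 202 ± 9.20 in fasted against 906 ± 8.52 in non-fasted libraries (SD, n = 2 each), so that it was 4.49-fold lower in the fasted libraries (log2 fold change -2.17, SE 0.066, adjusted p = 3.67e-09 by edgeR). Per1 was the clock gene with the largest difference between the groups at this scaling, and it kept its call in all 18 alternatives, with a log2 fold change from -3.94 to -2.05. Its paralog Per2 (Entrez gene 18627) had 67 and 64 against 242 and 242 counts, or 132 and 126 against 123 and 123 normalized counts. The fasted libraries lay just above the others, and the log2 fold change of 0.07 (SE 0.13, adjusted p = 0.622 by edgeR) was within the error, although Per2 passed as lower (-0.44) by total counts as well as (-1.70) relative to hepatocyte markers.

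Cry1 (Entrez gene 12952), a cryptochrome that inhibits the activator pair, had 160 and 167 counts in the fasted against 537 and 563 counts in the non-fasted libraries. Normalized, it stood at 322 ± 10.6 in fasted and 279 ± 9.48 in non-fasted libraries (SD, n = 2 each), a log2 fold change of 0.20 (SE 0.081, adjusted p = 0.0429 by edgeR). Both fasted libraries lay above the others by a narrow margin. This call was lost on leaving out any 1 of the 4 libraries (adjusted p from 0.0567 to 0.139 by edgeR) and with DESeq2 (adjusted p = 0.197), and the direction turned by total counts (-0.30). Over the 18 alternatives its adjusted p ran from 4.07e-11 to 1, both by edgeR. The lowest came by hepatocyte markers, where Cry1 was lower (-1.57), and the highest with a minimum fold of 2. Ciart (Entrez gene 229599), also named Chrono, which inhibits the activator pair independently of the cryptochromes, had 5 counts in each fasted library and 49 and 71 in the non-fasted. It was 3.08-fold lower in the fasted libraries at 9.84 ± 0.026 against 30.5 ± 7.92 normalized counts (SD, n = 2 each; log2 fold change -1.62, SE 0.43, adjusted p = 0.00711 by edgeR). The call did not hold without fasted library 1 or 2 (adjusted p = 0.130 and 0.0957 by edgeR), and adjusted p ran from 4.83e-07 to 0.130 over the alternatives, while Ciart was lower in all 18.

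The promoter windows of these genes are given because the loop works through short DNA elements next to their starts. Windows reach from 250 bases before to 50 bases after a RefSeq start and come from RefSeq on build GRCm38.p6, which is not the build of the counts (GRCm39). Of the 10 genes, 9 had at least 1 window, and Per2 had none in the table used. The letters searched on both strands were CACGTG (E-box), CACGTT (E′-box), TTATGNAA (D-box, bound by DBP and its relatives) and AANT followed directly by AGGTCA (RORE, bound by the ROR activators and the REV-ERB repressors). No matches of different motifs overlapped. An E-box was present in 7.15% of all 32851 windows of this length, an E′-box in 4.68%, a D-box in 3.38% and a RORE in 0.219%. In the 15078 windows of tested genes these shares were 9.42%, 5.15%, 2.26% and 0.166%. The letters were chosen after the windows were seen. Ciart, at chr3:95882179-95882478 (minus strand), held 3 E-boxes, and 0.0883% of all 32851 windows hold 3 or more. Per1, at chr11:69098699-69098998 (plus strand), held 1 E-box and 1 D-box at its first start and no match at its second. Cry1, at chr10:85185005-85185304 (minus strand), held 1 E-box and 1 E′-box, and the second start of Arntl, at chr7:113207261-113207560 (plus strand), had a RORE 27 bases after the start. Nr1d2, at chr14:18239057-18239356 (minus strand), is shown as a gene with none of these letters in its window. The sequences read 5′ to 3′ on the strand of the gene, with the matches in capitals.
Ciart: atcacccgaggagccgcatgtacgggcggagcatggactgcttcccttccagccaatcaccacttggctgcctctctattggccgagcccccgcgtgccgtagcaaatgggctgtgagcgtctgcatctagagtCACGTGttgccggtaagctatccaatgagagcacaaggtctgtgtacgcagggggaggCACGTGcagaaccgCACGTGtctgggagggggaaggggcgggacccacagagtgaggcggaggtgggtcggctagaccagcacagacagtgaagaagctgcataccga
Per1: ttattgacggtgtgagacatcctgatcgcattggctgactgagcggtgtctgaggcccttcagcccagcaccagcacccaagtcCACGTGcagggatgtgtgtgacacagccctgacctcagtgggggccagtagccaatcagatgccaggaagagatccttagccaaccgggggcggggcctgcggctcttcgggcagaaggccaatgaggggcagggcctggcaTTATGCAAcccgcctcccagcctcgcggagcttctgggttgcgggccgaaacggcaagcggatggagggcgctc
Cry1: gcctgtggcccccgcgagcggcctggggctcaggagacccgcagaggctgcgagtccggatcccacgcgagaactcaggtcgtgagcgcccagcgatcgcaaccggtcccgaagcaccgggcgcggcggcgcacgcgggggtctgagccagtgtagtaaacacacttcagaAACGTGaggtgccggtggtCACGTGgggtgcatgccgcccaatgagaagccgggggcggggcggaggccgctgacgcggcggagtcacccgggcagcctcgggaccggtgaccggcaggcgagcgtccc
Arntl: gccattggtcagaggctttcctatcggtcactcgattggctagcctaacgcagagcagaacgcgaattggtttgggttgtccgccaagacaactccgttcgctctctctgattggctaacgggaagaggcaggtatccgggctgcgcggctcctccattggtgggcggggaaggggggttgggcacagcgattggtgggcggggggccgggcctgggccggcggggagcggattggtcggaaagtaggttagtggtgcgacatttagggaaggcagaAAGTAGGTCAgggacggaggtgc
Nr1d2: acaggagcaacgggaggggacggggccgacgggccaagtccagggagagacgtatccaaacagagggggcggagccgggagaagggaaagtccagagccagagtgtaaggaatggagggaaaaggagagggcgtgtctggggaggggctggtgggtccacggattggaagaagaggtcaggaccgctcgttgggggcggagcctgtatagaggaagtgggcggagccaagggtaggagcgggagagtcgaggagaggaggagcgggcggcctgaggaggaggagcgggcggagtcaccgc

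**Figure D2:**
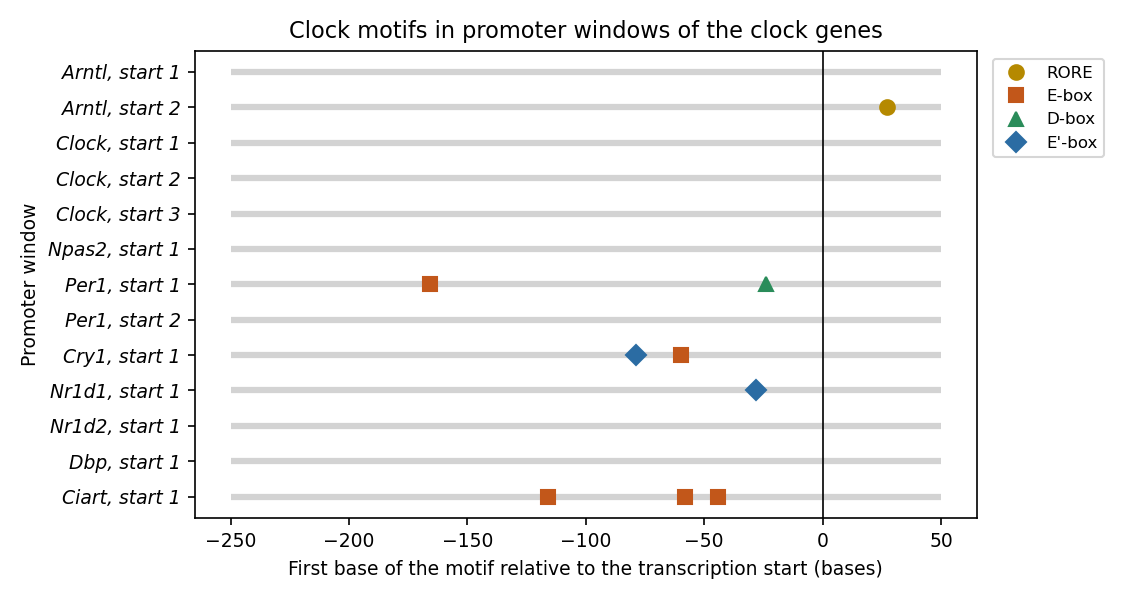
Position of the first base of each motif match relative to the transcription start (bases) in the promoter windows of 9 clock genes, 1 grey bar per annotated start. The 3 E-boxes of Ciart lie at -116, -58 and -44, the E-box of Per1 at -166 and that of Cry1 at -60. No match was found at the windows of Clock, Npas2, Nr1d2 and Dbp.

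Both genes that passed as lower held an E-box at a start, Ciart in its window and Per1 in 1 of its 2 windows, but so did Cry1, which stood at 0.20. Nr1d1 held no CACGTG and 1 E′-box, 28 bases before its start. These matches are a description of the letters in the windows, with no measure of binding in these data.

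The nuclear receptor genes of the second loop were both higher by median of ratios. Nr1d2 (Entrez gene 353187), encoding REV-ERBβ, had 950 and 897 counts in the fasted against 1442 and 1410 counts in the non-fasted libraries. Normalized counts were 1818 ± 68.9 in fasted and 725 ± 11.1 in non-fasted libraries (SD, n = 2 each), with both fasted libraries above both others and 2.51-fold higher (log2 fold change 1.33, SE 0.041, adjusted p = 3.88e-09 by edgeR). It was the highest of the 10 clock genes at this scaling, and at 0.82 by total counts and -0.44 by hepatocyte markers. Nr1d1 (Entrez gene 217166), encoding REV-ERBα, had 837 and 883 against 1991 and 1916 counts, or 1693 ± 68.6 against 993 ± 26.4 normalized counts (SD, n = 2 each). Its log2 fold change was 0.77 (SE 0.043, adjusted p = 2.49e-07 by edgeR), 0.27 by total counts and -1.001 by hepatocyte markers. In the GENCODE M21 annotation 263 of its 3077 exon bases lie opposite to exons of Thra, the thyroid hormone receptor α. Whether the counting used strand is not stated in the sources used here, so reads from these bases cannot be told apart. Thra itself had 237 ± 10.4 against 227 ± 10.2 normalized counts (log2 fold change 0.06, adjusted p = 0.558 by edgeR).

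Dbp (Entrez gene 13170), a bZIP factor that binds D-boxes and has one of the widest daily swings in liver, had 31 counts in each fasted library and 148 and 136 in the non-fasted. These were 60.9 and 61.1 against 75.2 and 69.1 normalized counts. Both fasted libraries lay below the others, but the log2 fold change of -0.24 (SE 0.18, adjusted p = 0.238 by edgeR) did not pass, and Dbp passed as lower with both other scalings (-0.75 by total counts, -2.01 relative to hepatocyte markers). Of its 2993 exon bases 539 lie opposite to exons of Sphk2, a sphingosine kinase with 1707 ± 79.7 against 835 ± 2.58 normalized counts, so without a stated strand setting the value of Dbp is uncertain.

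**Figure D3:**
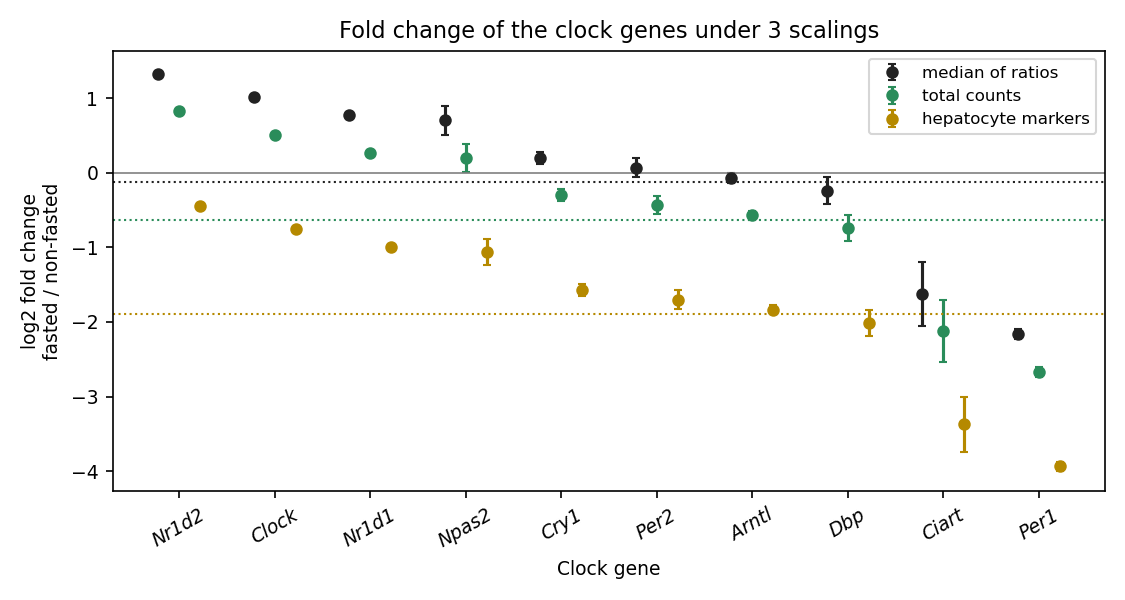
Difference of fasted from non-fasted libraries (log2 fold change) for the 10 clock genes after scaling by median of ratios (black), total counts (green) and hepatocyte markers (yellow), from edgeR. Bars are SEs and dotted lines the median of all 15470 genes tested at each scaling. The order from Nr1d2 to Per1 is shared, since a change of scaling moves all 10 genes by about the same amount. All 10 genes lie below 0 in yellow.

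The sign of 6 of the 10 clock genes turned when hepatocyte markers set the scale. Relative to median of ratios, total counts moved the median of all genes by -0.50 and hepatocyte markers moved it by -1.77 on the log2 scale. By total counts 3 clock genes were higher and 6 lower, where 23.0% and 62.8% of all genes were. By hepatocyte markers 0 were higher and all 10 were lower, where 4.68% and 90.2% of all genes were. Counted per 1000000 counts of the 14 hepatocyte markers, Clock stood at 580 and 595 in the fasted but 994 and 1002 in the non-fasted libraries. On the same measure Nr1d2 had 574 and 542 against 770 and 759, and Arntl 178 and 158 against 610 and 598. The widest gap was that of Per1, at 64.1 and 59.9 against 959 and 953. The trophoblast markers, which only the non-fasted libraries held beyond 3 counts a gene, split the libraries by group as well. Any gene that differs between the groups does so, and the part of placental RNA in these gaps was not tested.

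Ratios between clock genes within a library do not depend on any scaling. From the highest to the lowest log2 fold change the order was Nr1d2, Clock, Nr1d1, Npas2, Cry1, Per2, Arntl, Dbp, Ciart and Per1. The value of Nr1d2 stood above Clock by 0.31 (SE 0.054), and Clock above Nr1d1 by 0.25 (SE 0.055). The steps from Nr1d1 to Npas2 (0.07, SE 0.20), Cry1 to Per2 (0.14, SE 0.15), Per2 to Arntl (0.14, SE 0.14), Arntl to Dbp (0.17, SE 0.19) and Ciart to Per1 (0.54, SE 0.44) were no larger than their errors allow to separate. The step from Npas2 to Cry1 was 0.50 (SE 0.21) and that from Dbp to Ciart 1.38 (SE 0.47). All these SEs cover only the small spread between libraries of a group. With a fixed coefficient of variation of 0.2, the SEs of Nr1d2, Clock and Nr1d1 alone were 0.30, 0.29 and 0.29. These are about as large as the steps between them.

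The ratio of Per1 to its paralog Per2 and to Arntl was several-fold lower in the fasted libraries. For each count of Per2 there were 1.58 and 1.55 counts of Per1 in the fasted but 7.42 and 7.31 in the non-fasted libraries. For each count of Arntl there were 0.361 and 0.379 counts of Per1 in the fasted but 1.57 and 1.59 in the non-fasted libraries. Per2 kept nearly the same ratio to Arntl, at 0.228 and 0.245 against 0.212 and 0.218, and so did Dbp, at 0.105 and 0.119 against 0.130 and 0.122. Clock, the partner of Arntl, had 3.26 and 3.77 counts for each count of Arntl in fasted and 1.63 and 1.68 in non-fasted libraries. Ciart had 0.0170 and 0.0192 counts for each count of Arntl in fasted and 0.0429 and 0.0639 in non-fasted libraries, and so stood lower like Per1. Cry1, at 0.544 and 0.640 against 0.471 and 0.507, and Npas2, at 0.180 and 0.211 against 0.127 and 0.101, stood somewhat higher relative to Arntl in the fasted libraries. Between the activators, Clock had 18.1 and 17.9 counts for each count of Npas2 in fasted and 12.8 and 16.6 in non-fasted libraries (log2 difference 0.31, SE 0.20). Between the REV-ERB genes, Nr1d1 had 0.881 and 0.984 counts for each count of Nr1d2 in the fasted but 1.38 and 1.36 in the non-fasted libraries. The farthest apart were Nr1d2 and Per1, with 8.96 and 9.06 counts of Nr1d2 for each count of Per1 in the fasted but 0.803 and 0.797 in the non-fasted libraries, a difference of 3.49 on the log2 scale (SE 0.078). These ratios were compared as values, with no test, and their SEs cover only the same small spread.

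**Figure D4:**
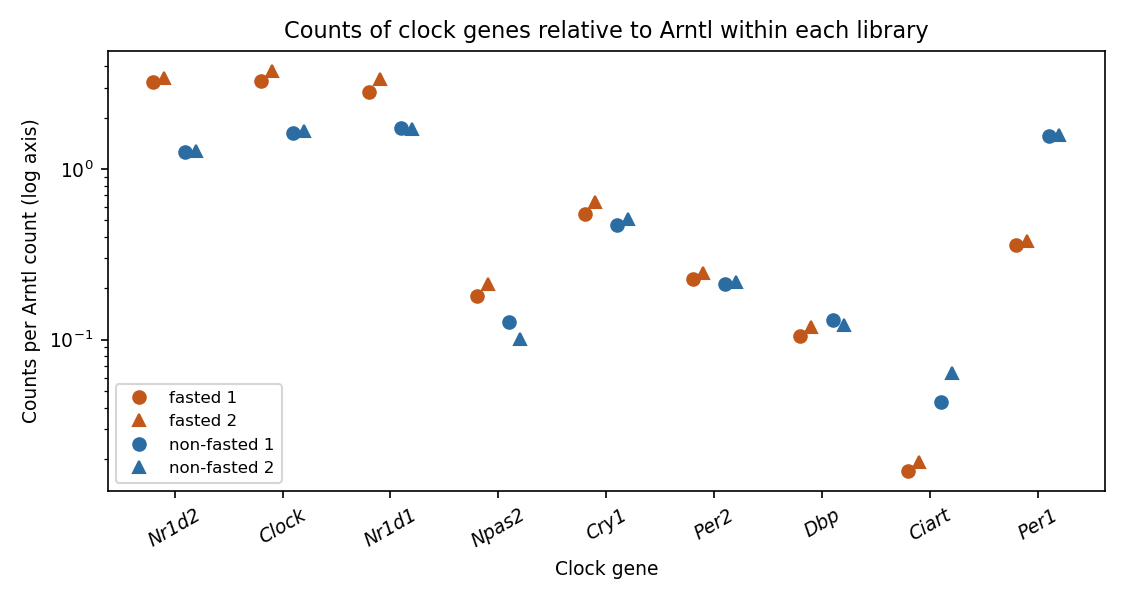
Counts of 9 clock genes for each count of Arntl within a library (log axis), with fasted libraries in orange and non-fasted libraries in blue. Points are single libraries, and no scaling enters. Nr1d2, Clock and Nr1d1 lie higher and Per1 and Ciart lower in the fasted libraries, while Per2 and Dbp lie at about the same ratio in both groups.

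The wider list of 23 other clock genes, all of which passed the filter on low counts, held 9 higher, 9 lower and 5 that did not pass the test in the fasted libraries by median of ratios, with a median log2 fold change of -0.10, where 37.3% and 45.2% of all genes were higher and lower. By hepatocyte markers 1 was higher and 21 were lower, where 4.68% and 90.2% of all genes were. Among the partners of DBP in the PAR bZIP family, Hlf had 611 and 644 counts in the fasted against 483 and 465 counts in the non-fasted libraries. It was the 1 gene of the list that was higher under both scalings, at 2.36 (SE 0.056) and 0.59, against -0.24 for Dbp by the first. Its relative Tef was at 0.93, and Nfil3, which represses at the same D-boxes, at 0.91, and these were at -0.84 and -0.86 by hepatocyte markers. Nuclear receptors that activate Arntl went apart: Rora was at 0.52 (-1.25 by hepatocyte markers), while Rorb had 0 counts in both fasted libraries against 122 and 129 in the others. With a floor of 3 counts over the fasted group Rorb was at least 21.6-fold lower.

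The remaining period and cryptochrome genes were also split. Per3 had 19 and 24 against 159 and 164 counts (log2 fold change -0.95, SE 0.20), and Cry2 had 334 and 351 against 626 and 647 counts (1.06, SE 0.062, and -0.71 by hepatocyte markers). Among the repressors of the basic helix-loop-helix family, which compete at E-boxes, Bhlhe40 had 209 and 192 against 5081 and 4876 counts (-2.68) and Bhlhe41 3 and 4 against 1532 and 1482 counts (-6.78). Of the casein kinases that mark period proteins for decay, Csnk1e was at -3.65, with 35 and 46 against 1974 and 1977 counts, and Csnk1d at -0.46. Arntl2, the paralog of Arntl, had 5 and 4 against 97 and 84 counts (-2.36). Of the regulators of protein decay and phosphorylation, Gsk3b (-0.81) and Fbxw11 (-0.31) were lower and Btrc was at 0.21, which turned to -0.29 by total counts. Among those that did not pass the test, Timeless was at 0.24, Nono at -0.03, Sirt1 at -0.13 and Fbxl21 at -0.40. The corepressor partners of the REV-ERB proteins, Ncor1 and Hdac3, were at 0.82 and 0.29 by median of ratios but at -0.95 and -1.48 by hepatocyte markers. Bhlhe40, Bhlhe41, Csnk1e and Rorb were high in both non-fasted libraries, as the trophoblast markers were, which holds for any gene higher in that group. The part of placental RNA in these values was not tested.

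Liver genes under known daily control split as well, and 4 of them were higher by median of ratios, total counts and hepatocyte markers alike. Of 14 such genes, 8 were higher, 5 lower and Coq10b (0.11) did not pass by median of ratios, with a median of 0.40, where 37.3% and 45.2% of all genes were higher and lower. By total counts 5 were higher and 7 lower (23.0% and 62.8% of all genes), and by hepatocyte markers 4 were higher and 10 lower (4.68% and 90.2% of all genes). The 4 were Alas1, the rate-limiting enzyme of heme synthesis (2.82, and 1.05 by hepatocyte markers), Elovl3, an elongase of long fatty acids (2.46 and 0.69), Gys2, the glycogen synthase of liver (2.17 and 0.40), and Cyp2a5, a cytochrome P450 (2.08 and 0.31). The hepatocyte markers themselves ran from -0.16 to 0.45 at their own scaling, so that Gys2 and Cyp2a5 lay within that range and Alas1 and Elovl3 above it. Alas1 had 7511 and 7503 counts in the fasted libraries against 4127 and 4101 in the non-fasted, although the latter were sequenced deeper. Cyp7a1, the rate-limiting enzyme of bile acid synthesis, was at 1.17 by median of ratios but at -0.61 by hepatocyte markers. The 5 lower genes were Rgs16 (-5.38), a brake on G protein signalling, Noct (-5.20), a phosphatase named nocturnin, the cell cycle kinase Wee1 (-5.05), the deubiquitinase Usp2 (-2.62) and Nampt (-0.64), the rate-limiting enzyme of NAD salvage. Noct had 71 and 90 counts in the fasted against 11602 and 11371 counts in the non-fasted libraries. Wee1 had 15 and 24 against 2558 and 2445, and Rgs16 14 and 11 against 1984 and 2057. Any part of placental RNA in the values of the higher or lower genes was not tested. The same holds for a difference in sex between the groups, whose Xist counts differed.

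**Figure D5:**
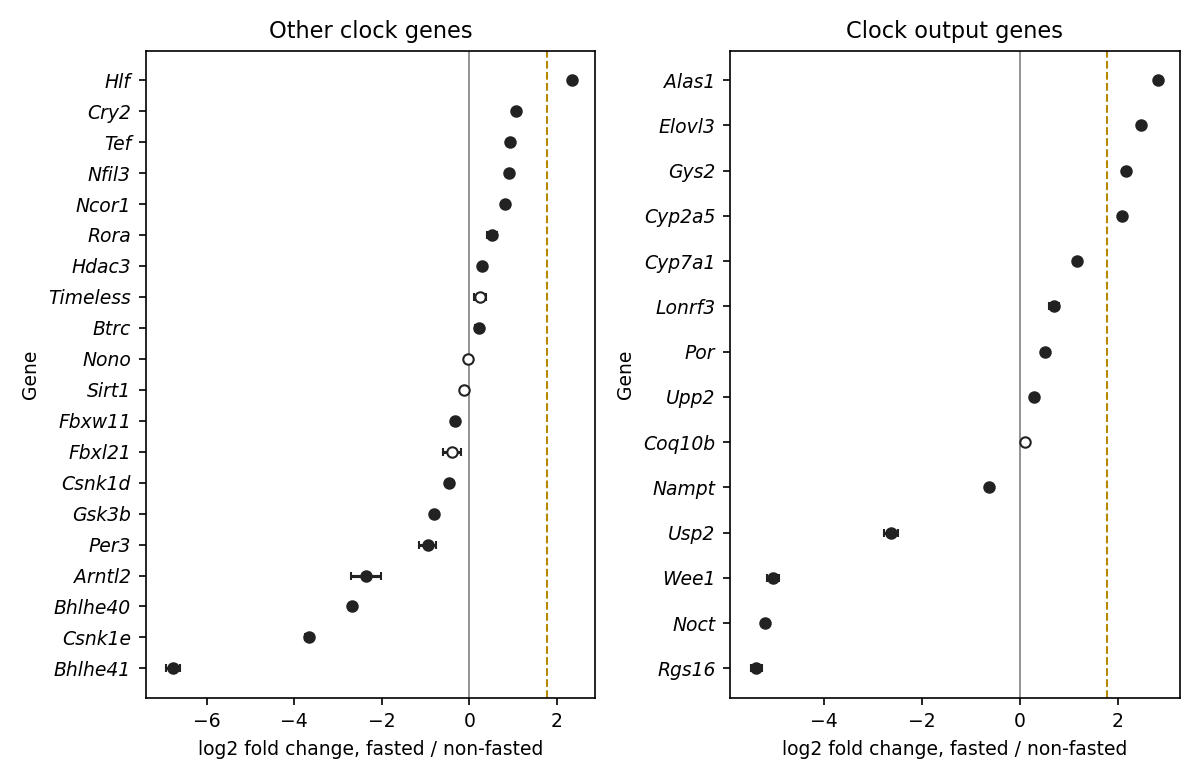
Log2 fold change, fasted over non-fasted, after median-of-ratios scaling for other clock genes (left, without Rorb, which had 0 counts in the fasted libraries, and without list members not reported here) and for the 14 clock output genes (right). Points are genes with SEs, filled where the edgeR test passed, and the dashed yellow line is the median of the hepatocyte markers (1.77). Hlf, Alas1, Elovl3, Gys2 and Cyp2a5 lie to the right of that line, and the other genes shown lie to its left.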

How the data were processed

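RNA labelled as mouse liver was sequenced from 2 fasted and 2 non-fasted samples, and groups follow the sample titles. The deposited files hold raw counts per Entrez gene with no normalization. The submitters' processing notes list, with no roles, the tools STAR, featureCounts, Trimmomatic, MultiQC, FastQC and DESeq2 1.32.0, and the build GRCm39 (mm39). How the counting treated strand and reads with several matches is not stated by any source at hand. Symbols came from RefSeq on GRCm38.p6, where 1904 of 27179 identifiers had no match and all 10 clock genes had one.

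Counts were filtered with filterByExpr, scaled by median of ratios and tested two-sided with the quasi-likelihood test of edgeR 4.0.16 in R 4.3.3 (legacy = FALSE), with Benjamini-Hochberg adjustment at 0.05 over 15470 genes. Standard errors were back-calculated from the F statistic. The common dispersion estimate, 9.77e-05, lay at the lowest value that the search allows. Dividing counts by library size factors gave the normalized counts, whose SD is over 2 libraries. With 2 libraries a group an exact permutation test cannot go below p = 0.333, so none is given. Scaling to hepatocyte markers set the median log ratio of 14 markers equal. The alternatives were other scalings, filters and tests (limma-voom with limma 3.58.1, DESeq2 1.42.0), fixed coefficients of variation, a minimum fold of 2, a replicate block and leaving out each library. Named genes were the 10 clock genes and members of the 2 other lists of 23 and 14 genes, some of which count in their list but are not reported here by name. Members and lists were chosen with earlier results of these data known, and the motif letters after the windows were seen. Markers of 5 further cell types were summed and tested in the same fit. Python 3.11.15 and matplotlib 3.10.9 made the figures.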

Additional observations from a re-analysis of the deposited data

How the results depend on the processing

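Directions and calls of the clock genes depended most on the scaling. By hepatocyte markers, Clock (-0.75), Npas2 (-1.07), Per2 (-1.70), Cry1 (-1.57), Nr1d1 (-1.001) and Nr1d2 (-0.44) turned lower, as did Cry2 (-0.71), Rora (-1.25), Tef (-0.84), Nfil3 (-0.86), Btrc (-1.56), Timeless (-1.52), Ncor1 (-0.95), Hdac3 (-1.48), Cyp7a1 (-0.61), Upp2 (-1.49), Por (-1.25), Lonrf3 (-1.07) and Coq10b (-1.66), all as log2 fold changes. By total counts, Per2 (-0.44), Cry1 (-0.30), Btrc (-0.29), Timeless (-0.26), Hdac3 (-0.21), Upp2 (-0.22) and Coq10b (-0.40) turned lower. By upper quartile, Arntl (0.051, not past the test) and Nono (0.089, then past the test as higher) crossed 0. With 1 library left out in turn, Arntl ranged from -0.12 to 0.046 and Nono from -0.055 to 0.0043, and the values above 0 came without a fasted library.

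Of all genes, 5767 were higher and 6990 lower. These became 3561 higher by total counts, 724 higher and 13952 lower by hepatocyte markers, 3714 higher at a coefficient of variation of 0.2, 1648 higher and 3691 lower at 0.4, and 2287 higher and 4017 lower with a minimum fold of 2. Of the 10 clock genes, 5 higher and 2 lower became 3 and 6 by total counts, 0 and 10 by hepatocyte markers, 3 and 1 with no filter, 3 and 2 at a coefficient of variation of 0.2, 0 and 1 at 0.4, and 1 and 1 with a minimum fold of 2. Leaving out 1 library at a time left 3 to 4 higher and 1 to 2 lower. Npas2, Cry1 and Ciart lost their calls with no filter (adjusted p from 0.0551 to 0.0740 by edgeR) and without either fasted library. Clock, Nr1d1 and Nr1d2 lost theirs at a coefficient of variation of 0.4 (adjusted p = 0.179, 0.339 and 0.0661 by edgeR). The cause of these losses was not tested. The list of 23 other clock genes, 9 higher and 9 lower, became 15 lower by total counts, 1 higher and 21 lower by hepatocyte markers, and 2 higher and 5 lower both at 0.4 and with a minimum fold of 2. Of the 14 output genes, 8 higher and 5 lower became 5 higher by total counts, 4 higher and 10 lower by hepatocyte markers, 4 higher at 0.4 and 5 higher with a minimum fold of 2.

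With the replicate number as a block, 5743 genes were higher and 6957 lower, and the clock genes kept 5 higher and 2 lower, the other clock genes 9 and 9, and the output genes 8 and 5. Same-numbered libraries did not deviate together (correlation -0.0019 over 12573 genes). Libraries of a group differed little beyond counting error, so this value cannot show whether the numbers pair libraries. TMM scaling, limma-voom, edgeR's legacy deviance and a 1 CPM filter changed no call or direction among the 10 clock genes. Depth limits Ciart (5 counts in each fasted library), Dbp, Npas2 and Per2 most.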
